A study of Caenorhabditis elegans with 5 samples.

Results

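The 10 genes described here take part in the repair of DNA crosslinks and bulky lesions in Caenorhabditis elegans: fcd-2, fan-1, dvc-1, xpa-1, xpf-1, csb-1, brc-1, polh-1, polq-1 and cep-1. They were taken by symbol from the annotation of the array platform, which named all 10 of them among 17118 genes. Of 22625 probe sets, 14 named 1 of the 10 genes alone and 1 named brc-1 together with another gene. All 10 were among the 10271 genes past the filter on low levels, a mean log2 level of at least 6.05 over the arrays. The study hybridised whole-animal RNA of wild-type hermaphrodites to 5 Affymetrix arrays, 1 per group. The groups were an unexposed culture (the control) and cultures kept for 24 h in benzene, in toluene, in formaldehyde or in all 3 together (the BTF mix). All animals were young adults, aged 3 days, from age-synchronised cultures raised on Escherichia coli, and exposure took place unfed in a salt solution held at 20 °C. Concentrations, the number of animals per culture and the incubation of the control are not stated in the labels.

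Formaldehyde is a reactive aldehyde that links DNA strands to each other and traps proteins on DNA. Cells remove such damage by several routes: the Fanconi pathway frees crosslinked strands with nucleases, proteases degrade trapped proteins, nucleotide excision repair cuts out bulky adducts, recombination mends broken strands, and translesion polymerases copy past what remains. In the nematode, cells that divide in the adult lie in the germ line, where many of these genes are active.

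With 1 array per group there is no replicate error and no test, so every difference below describes a pair of arrays and has no replicate check. Values were compared as log2(intensity + 16). In RNA of whole animals, fewer cells of a type and less RNA per cell cannot be told apart. A difference of 2-fold, or one of 25% upwards or 20% downwards (both 0.32 on the log2 scale), is a rule of size only, and the counts of the 10 genes are set beside the share of all 10271 genes past the same size. The arrays had medians between 82.3 and 84.8. The poly-A control spikes, RNAs added to the sample before labelling, stood -0.45 on the log2 scale against control with benzene, -0.13 with toluene, -0.13 with formaldehyde and 0.62 with the mix. Directions below therefore hold only against the general level of an array, and orders of arrays are those of the deposited scaling unless another is named. With spike scaling benzene was the highest and the mix the lowest array for all 10 genes, as for 85.6% and 90.8% of all genes. With spike scaling all 10 genes were 20% lower after the mix and 5 were 25% higher after benzene, while the median of all genes moved to -0.61 and 0.40.

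None of the 10 genes was 2-fold away from control after any exposure. The widest difference was that of xpa-1 after toluene, 1.34-fold lower. Genes 2-fold higher made up 1.2% of all genes with benzene, 0.107% with toluene, 4.55% with formaldehyde and 4.34% with the mix, and genes 2-fold lower 0.175%, 0.0974%, 2.27% and 2.31%. Of the 40 differences (10 genes, 4 exposures), 23 were below 0, 14 above 0 and 3 exactly 0. The median over the 10 genes was -0.078 with benzene, -0.14 with toluene, -0.016 with formaldehyde and -0.022 with the mix, against -0.009 with benzene, -0.014 with toluene, -0.046 with formaldehyde and -0.037 with the mix over all genes.

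**Figure D1:**
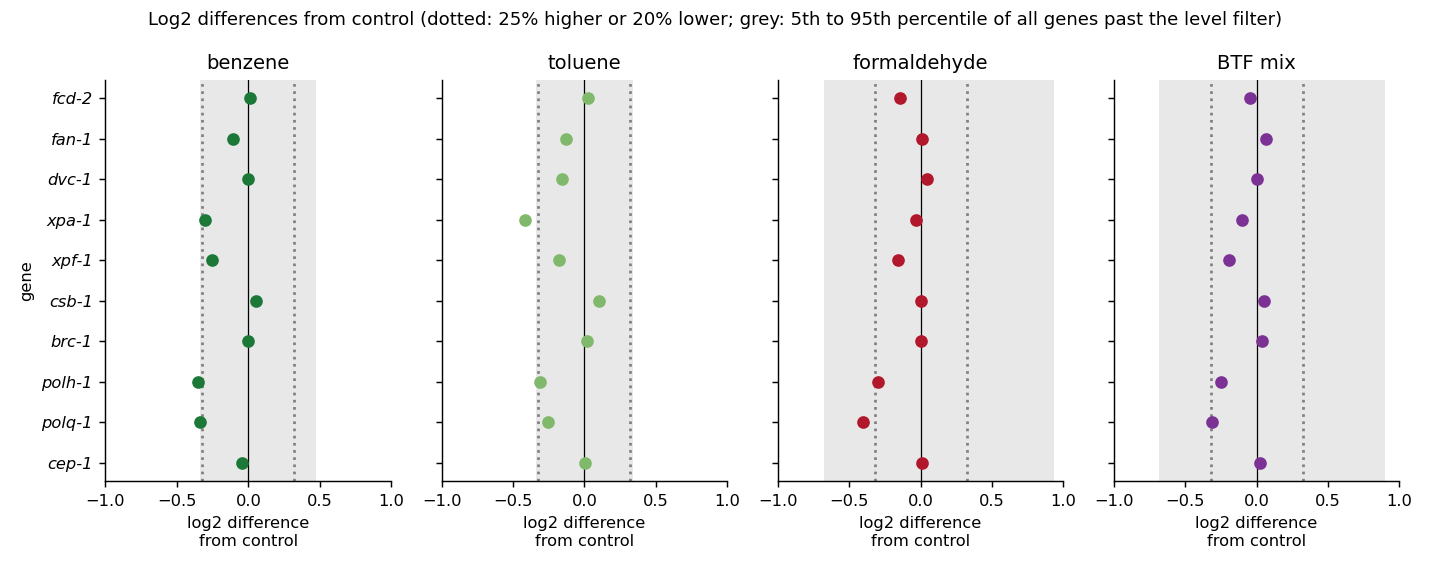
Log2 difference from control (horizontal axis) of the 10 genes, 1 panel per exposure and 1 point per gene; dotted lines mark 25% higher and 20% lower and grey bands span the 5th to 95th percentile of all 10271 genes. The points of xpa-1, xpf-1, polh-1 and polq-1 lie left of 0 in every panel, that of xpa-1 is far from 0 after benzene and toluene only, and those of brc-1 and cep-1 stay near 0.

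At the smaller size, 2 of the 10 were at least 20% lower after benzene (polh-1 and polq-1) where 5.63% of all genes were. After toluene 1 was lower (xpa-1) against 5.8% of all genes, and after formaldehyde 1 was lower (polq-1) against 15.4%. After the mix 0 of 10 were lower, against 15.4% of all genes. No gene of the 10 was 25% higher after any exposure, against 9.01% of all genes with benzene, 5.59% with toluene, 13.4% with formaldehyde and 13.7% with the mix. With 10 genes, 1 gene is a share of 10%, so these counts do not set the genes apart from the array as a whole. The median range of a gene over the 5 arrays was 0.20 for the 10 genes and 0.28 for all genes.

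**Figure D2:**
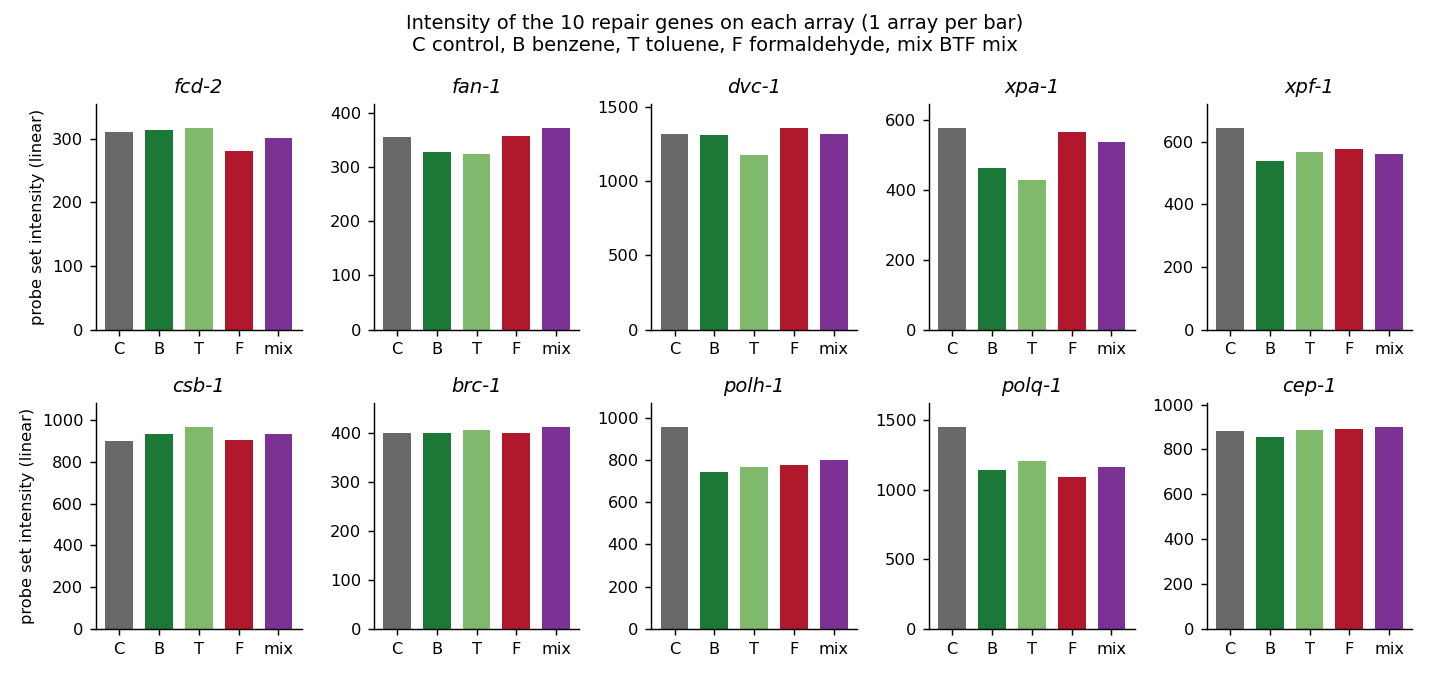
Probe set intensity (linear vertical axis from 0, a scale of its own for each gene) of the 10 genes on the 5 arrays, 1 bar per array. The control bar is the tallest for xpa-1, xpf-1, polh-1 and polq-1, and the bars of brc-1 and cep-1 are nearly level.

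fcd-2 (Y41E3.9) encodes the worm FANCD2, a protein that is loaded onto DNA at a stalled fork and starts the release of a crosslink. Its intensity was 311 unexposed, 313 with benzene, 317 with toluene, 281 with formaldehyde and 301 with the mix. The 2 arrays with formaldehyde were the lowest of the 5, at a log2 difference from control of -0.14 for formaldehyde alone and -0.043 for the mix. fan-1 (C01G5.8) encodes a nuclease that cuts at crosslinks together with the Fanconi pathway. It had 354 on the control array, 327 under benzene, 323 under toluene, 358 under formaldehyde and 372 under the mix. For fan-1 the order was the opposite one, with both formaldehyde-containing arrays above the other 3, although formaldehyde exceeded control by only 0.013 and benzene and toluene lay at -0.11 and -0.13. Each of these genes rests on 1 probe set, with a name ending in s, which marks possible binding to several transcripts.

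Among the other 11 genes of a list for crosslink repair, all past the level filter, none was 25% higher. Lower by 20% were 2 after benzene (eme-1 and rtel-1), 2 after toluene (eme-1 and slx-1) and 0 after formaldehyde and the mix, and the medians were -0.073 with benzene, -0.078 with toluene, -0.17 with formaldehyde and -0.11 with the mix. Of all genes, 5.63% were 20% lower with benzene, 5.8% with toluene, 15.4% with formaldehyde and 15.4% with the mix. Higher by 25% were 9.01% with benzene, 5.59% with toluene, 13.4% with formaldehyde and 13.7% with the mix. These shares stand beside the counts of each list below. The 3 genes of that list furthest from control encode nuclease or helicase proteins. eme-1, a partner of the nuclease MUS-81, had 957 unexposed, 757 with benzene, 722 with toluene, 792 with formaldehyde and 811 with the mix. rtel-1, a helicase that takes apart recombination intermediates, had 2121 on the control array, 1634 under benzene, 1722 under toluene, 1793 under formaldehyde and 1791 under the mix. slx-1, a nuclease subunit, had 1629 in control, while benzene gave 1318, toluene 1297, formaldehyde 1411 and the mix 1511. In all 3 the control array was the highest. mus-81 itself differed less (-0.12 with benzene, -0.012 with toluene, -0.17 with formaldehyde and -0.19 with the mix), and fnci-1, the partner of fcd-2, stood at 0.042 after formaldehyde, with intensities between 61.1 and 63.4.

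dvc-1 (T19B10.6) encodes the worm counterpart of Spartan, a protease that degrades proteins trapped on DNA. Its intensities were 1317 unexposed, 1313 with benzene, 1177 with toluene, 1358.5 with formaldehyde and 1317 with the mix. The formaldehyde array was the highest of the 5 by a small margin (0.044 against control), the mix carried the same value as the control, and toluene was the lowest (-0.16). Of the other 7 genes listed for removal of trapped proteins, 0 were 25% higher or 20% lower than control after any exposure. cdc-48.1, which encodes the segregase that pulls ubiquitinated proteins from chromatin, had 1482 on the control array, 1692 under benzene, 1517 under toluene, 1520.1 under formaldehyde and 1402 under the mix, and mre-11, a nuclease that trims blocked DNA ends, had 2557 in control, while benzene gave 2553, toluene 2329.9, formaldehyde 2565 and the mix 2535. Medians of these 7 genes were -0.002 with benzene, -0.0097 with toluene, 0 with formaldehyde and -0.01 with the mix.

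Nucleotide excision repair gave the gene with the widest range of the 10. xpa-1 (K07G5.2) encodes the protein that checks a damaged strand before it is cut. It had 578 unexposed, 464 with benzene, 429 with toluene, 564 with formaldehyde and 537 with the mix. The control array was the highest, and benzene and toluene were the lowest. Its difference from control was -0.31 with benzene, -0.42 with toluene, -0.032 with formaldehyde and -0.10 with the mix, and 2.68% of all genes lay lower than xpa-1 after toluene. Set directly against each other, formaldehyde exceeded toluene by 0.38 and benzene by 0.27. With spike scaling the differences from control became 0.13 with benzene, -0.29 with toluene, 0.093 with formaldehyde and -0.70 with the mix, so that benzene turned to above control and the mix was lowest, and formaldehyde minus benzene turned to -0.033 while formaldehyde minus toluene stayed at 0.38. The probe set of xpa-1 carries no mark for binding to several transcripts.

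xpf-1 (C47D12.8) encodes the nuclease that cuts on the 5′ side of a lesion and also acts at crosslinks. Its values were 644 on the control array, 538 under benzene, 568 under toluene, 577 under formaldehyde and 560.2 under the mix. The control array was the highest, and the 4 exposed arrays lay within a narrow band (-0.25 with benzene, -0.18 with toluene, -0.16 with formaldehyde and -0.20 with the mix). With spike scaling xpf-1 stood at 0.18 with benzene, -0.048 with toluene, -0.03 with formaldehyde and -0.79 with the mix, so control was no longer the highest and the band was wide. ercc-1, which encodes the subunit that forms a dimer with XPF-1, had 896 in control, while benzene gave 726, toluene 759.6, formaldehyde 745 and the mix 759.6. Both subunits were thus highest in control and lowest after benzene, and neither was 20% lower. csb-1 (F53H4.1) encodes the factor that starts repair where an RNA polymerase has stalled. Its intensities were 902 unexposed, 936 with benzene, 967 with toluene, 905 with formaldehyde and 936 with the mix. It was the 1 gene of the 10 for which control was the lowest array, by at most 0.10 (toluene). xpc-1, which senses lesions outside transcribed strands, was at -0.25 with benzene, -0.13 with toluene, -0.19 with formaldehyde and -0.19 with the mix. Of the 6 measured genes of the excision list other than xpa-1, xpf-1 and csb-1, 0 were 25% higher or 20% lower than control. Their medians were -0.048 with benzene, -0.048 with toluene, -0.08 with formaldehyde and -0.09 with the mix, and xpd-1 was not measured under that name.

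brc-1 (C36A4.8) encodes the worm BRCA1, which with its partner BRD-1 forms a ubiquitin ligase that guides recombination. Its intensities were 401 unexposed, 401 with benzene, 405 with toluene, 401 with formaldehyde and 412 with the mix. Benzene and formaldehyde carried exactly the control value. A second probe set had the same value on all 5 arrays, as had 172 of 22625 probe sets (0.76%), and the probe set shared with another gene lay between -0.08 and -0.0037 against control. Values equal to the last digit do not by themselves show that the transcript was at the same level. brd-1 had 823 on the control array, 822 under benzene, 812 under toluene, 823 under formaldehyde and 922 under the mix, with the mix 0.16 above control. Of the other 12 recombination genes measured, 0 were 25% higher or 20% lower than control. The furthest were rmh-1, which encodes a scaffold of the complex that dissolves joined molecules, at -0.29 after toluene, brc-2 (the worm BRCA2, which loads RAD-51) at -0.27 after toluene and rpa-1 (a subunit that coats exposed strands) at -0.24 after formaldehyde. rad-51, the recombinase itself, stood at 0.17 with benzene, 0.08 with toluene, -0.017 with formaldehyde and -0.028 with the mix. The medians of the 12 were 0.011 with benzene, -0.054 with toluene, -0.00035 with formaldehyde and 0.07 with the mix, and rfs-1 was not measured under that name.

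**Figure D3:**
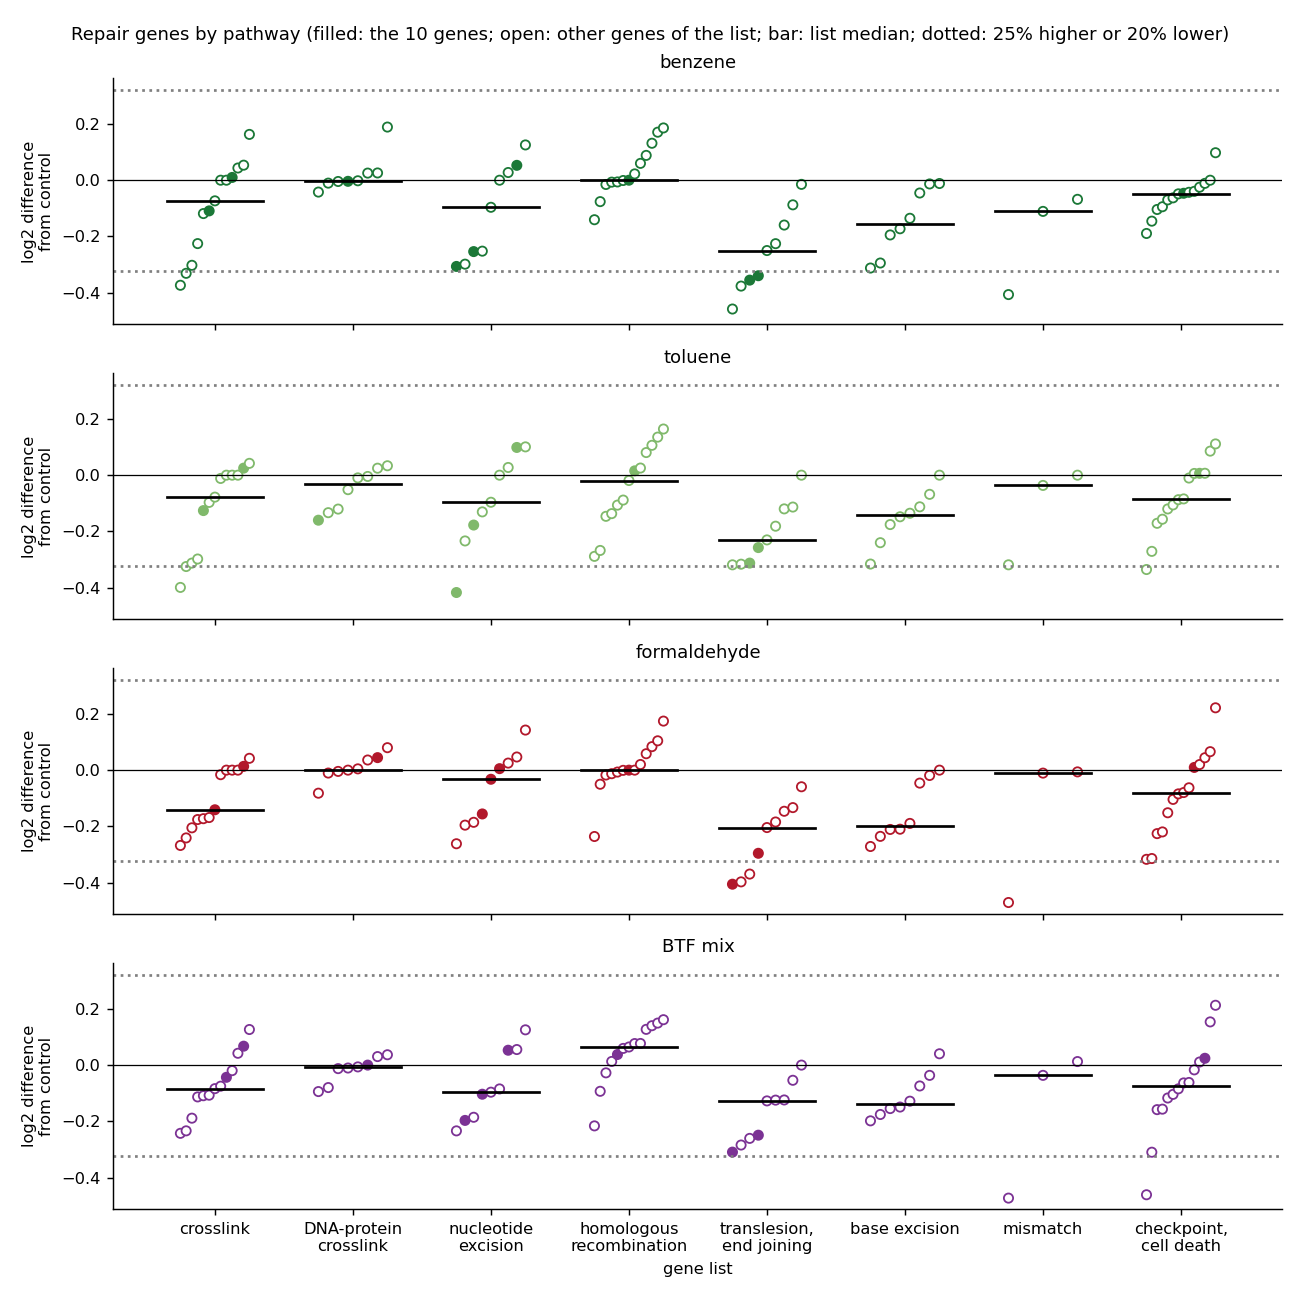
Log2 difference from control (vertical axis) of the genes of 8 repair lists past the level filter, 1 panel per exposure; filled points are the 10 genes, open points the other genes of each list, bars the list medians and dotted lines 25% higher and 20% lower. Under the deposited scaling shown, the translesion and end joining list lies at or below 0 throughout, whereas the recombination list is spread around 0.

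The listed polymerases that bypass damage or join ends were polh-1, polq-1, polk-1, rev-1 and rev-3. They were below control on all 4 exposed arrays under the deposited scaling, median centring and quantile normalization. With spike scaling 1 of the 9 genes of their list was below control under benzene and 6 under toluene. Formaldehyde put 8 of the 9 below control and the mix all 9. The list's medians were then 0.18 (benzene), -0.10 (toluene), -0.078 (formaldehyde) and -0.74 (mix). Over all genes the medians were 0.40 (benzene), 0.10 (toluene), 0.074 (formaldehyde) and -0.61 (mix). The list's median thus lay below that of all genes in each exposure. polh-1 (F53A3.2) encodes polymerase eta, which inserts bases across bulky adducts. It had 955 unexposed, 743 with benzene, 766 with toluene, 775 with formaldehyde and 801 with the mix. The 4 exposed arrays lay close together and below the control (-0.36 with benzene, -0.31 with toluene, -0.30 with formaldehyde and -0.25 with the mix), and 4.38% of all genes were lower than polh-1 after benzene. polq-1 (W03A3.2) encodes polymerase theta, which joins broken ends through short matching stretches. Its intensities were 1451 on the control array, 1143 under benzene, 1211 under toluene, 1092 under formaldehyde and 1168 under the mix, again with the control above the rest (-0.34 with benzene, -0.26 with toluene, -0.41 with formaldehyde and -0.31 with the mix). The probe sets used for polh-1 and polq-1 carry the mark s for possible binding to several transcripts. A dimmer probe set of polq-1, also marked s, had 164 in control and 134 after formaldehyde and lay between -0.26 and -0.068. The third, unmarked and with intensities of 22.6 to 23.9, lay between -0.027 and 0.022. With the mean of the probe sets polq-1 stood at -0.15 after benzene and -0.22 after formaldehyde, neither 20% lower. Under spike scaling polh-1 turned to 0.082 with benzene and stood at -0.18 with toluene, -0.17 with formaldehyde and -0.85 with the mix. For polq-1 the values were 0.10 with benzene, -0.13 with toluene, -0.28 with formaldehyde and -0.92 with the mix.

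Other genes of the list were likewise highest in control. polk-1 (polymerase kappa) had 1197 in control, while benzene gave 868, toluene 959, formaldehyde 1052 and the mix 1095, and rev-1, which encodes a polymerase that also acts as a scaffold for the others, had 857 unexposed, 657 with benzene, 684 with toluene, 742 with formaldehyde and 786 with the mix. rev-3, the catalytic subunit of polymerase zeta, was at -0.25 with benzene, -0.12 with toluene, -0.40 with formaldehyde and -0.26 with the mix, and lig-4, the ligase that seals joined ends, at -0.23 with benzene, -0.23 with toluene, -0.37 with formaldehyde and -0.28 with the mix. In the list of translesion and end joining genes, 9 of 11 were measured and past the filter. Of these, 8 were highest in control, where 35.3% of all genes were (with spike scaling 1, where 2.69% were). Of the 9, 4 were at least 20% lower after benzene (polk-1, rev-1, polh-1 and polq-1), 0 after toluene, 3 after formaldehyde (polq-1, rev-3 and lig-4) and 0 after the mix, and none was higher. The medians were -0.25 with benzene, -0.23 with toluene, -0.20 with formaldehyde and -0.13 with the mix (all genes: -0.009 with benzene, -0.014 with toluene, -0.046 with formaldehyde and -0.037 with the mix). All 4 differences share the control array, and its part in them was not tested.

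cep-1 (F52B5.5) encodes the worm p53, the transcription factor that triggers death of damaged germ cells. Its intensities were 883 unexposed, 855 with benzene, 888 with toluene, 889 with formaldehyde and 899 with the mix. The 5 values spanned 0.071 on the log2 scale, and 6.54% of all genes had a narrower range. A second, dim probe set of cep-1, with intensities of 25.6 to 28.4, stood at 0.0046 with benzene, 0 with toluene, -0.016 with formaldehyde and -0.091 with the mix. ape-1, which encodes an inhibitor of CEP-1, had 371 on the control array, 358 under benzene, 343 under toluene, 294 under formaldehyde and 265 under the mix, so that both formaldehyde-containing arrays were the lowest. hus-1, a subunit of the clamp that signals damage, had 1007 in control, while benzene gave 958, toluene 1089, formaldehyde 807 and the mix 809, with the same pair of arrays lowest. atl-1, the worm ATR kinase, was lowest after toluene (-0.19 with benzene, -0.34 with toluene, -0.22 with formaldehyde and -0.063 with the mix). egl-1, a target of CEP-1 that starts cell death, was below the level filter, with 59 unexposed, 48.7 with benzene, 53.4 with toluene, 39 with formaldehyde and 39.2 with the mix. ced-13, the other such target, was dimmer still, between 12.5 and 13.2, and atm-1 was also below the filter. Of the other 13 checkpoint and cell death genes past the filter, 1 was 20% lower after toluene (atl-1), 1 after the mix (ape-1) and 0 after benzene and formaldehyde, and the medians were -0.048 with benzene, -0.087 with toluene, -0.084 with formaldehyde and -0.084 with the mix.

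Repair routes outside the 10 genes gave small differences as well. Among 8 measured base excision genes, 0 were 25% higher or 20% lower than control, while 7 were highest in control (35.3% of all genes were) and the medians were -0.15 with benzene, -0.14 with toluene, -0.20 with formaldehyde and -0.14 with the mix. With spike scaling 0 of these 8 were highest in control, where 2.69% of all genes were. The medians were then 0.28 with benzene, -0.014 with toluene, -0.073 with formaldehyde and -0.74 with the mix. Those of all genes were 0.40 with benzene, 0.10 with toluene, 0.074 with formaldehyde and -0.61 with the mix. apn-1, an endonuclease at sites that lost a base, reached -0.32 after toluene, parp-2, a sensor of nicks, -0.31 after benzene and lig-1, a DNA ligase, -0.27 after formaldehyde. mlh-1, a mismatch repair gene, was 1 of 3 measured genes of its list and 20% lower after benzene, formaldehyde and the mix, with 1713 on the control array, 1288 under benzene, 1370.3 under toluene, 1232 under formaldehyde and 1229.9 under the mix and differences of -0.41 with benzene, -0.32 with toluene, -0.47 with formaldehyde and -0.47 with the mix. Its value under toluene lay just inside that size. The values of mlh-1 are those of the brighter of its 2 probe sets, and the other is not reported here. msh-2 and msh-6, which recognise the mismatch, lay between -0.11 and 0.013. Of the 67 listed repair and checkpoint genes other than the 10 and past the filter, 5 were 20% lower with benzene, 3 with toluene, 3 with formaldehyde and 2 with the mix. The shares of all genes were 5.63% with benzene, 5.8% with toluene, 15.4% with formaldehyde and 15.4% with the mix. None of the 67 was 25% higher, where 9.01% of all genes were with benzene, 5.59% with toluene, 13.4% with formaldehyde and 13.7% with the mix. Both listed genes for enzymes that oxidise aldehydes stayed within these sizes. adh-5, which encodes the dehydrogenase that acts on formaldehyde bound to glutathione, had 377 unexposed, 407 with benzene, 368 with toluene, 409 with formaldehyde and 442 with the mix. alh-1, an aldehyde dehydrogenase gene, was highest after toluene and lowest in the 2 formaldehyde-containing arrays (0.04 with benzene, 0.26 with toluene, -0.27 with formaldehyde and -0.26 with the mix).

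The 2 arrays with formaldehyde and the 3 without were then compared over the 10 genes. Both formaldehyde-containing arrays lay above the other 3 for 2 genes (fan-1 and cep-1), against 20.2% of all genes, and below for 1 (fcd-2), against 30.4%. They are different exposures and not replicates, and the other 7 genes overlapped. The margins were small: for cep-1 formaldehyde exceeded toluene by 0.003, and for fan-1 it exceeded control by 0.013. With spike scaling the counts became 0 above and 2 below. The mix was then the lowest array for 90.8% of all genes, so these counts cannot be set beside the shares of the deposited scaling. Direct differences between exposures need no control array. Formaldehyde was at least 25% above toluene for 1 of the 10 genes (xpa-1) where 12.1% of all genes were, and above benzene for 0 (9.06%). It was at least 20% below toluene for 0 (12.2%) and below benzene for 0 (9.92%). Between the mix and formaldehyde no gene of the 10 was 25% higher or 20% lower in the mix (0.896% of all genes were higher and 1.04% lower), and the widest gap was that of fcd-2, 0.10 higher in the mix. With spike scaling all 10 genes were 20% lower in the mix than after formaldehyde, as were 99% of all genes. Benzene and toluene, which differ by a methyl group on the ring, gave a difference of that size for 0 of the 10 genes (4.43% of all genes were higher after benzene and 1.35% lower). The largest gaps were dvc-1 (0.16, benzene minus toluene), xpa-1 (0.11) and polq-1 (-0.082). With spike scaling benzene was 25% above toluene for 2 genes and formaldehyde 20% below benzene for 3. The median of all genes against control was then 0.40 with benzene, 0.10 with toluene and 0.074 with formaldehyde. Shares of all genes for these 2 counts are not given here, and the shares above are of the deposited scaling. As concentrations are not known, these are values side by side and not a comparison at matched dose.

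Against all 4 exposures together, control was the highest array for 4 of the 10 genes (xpa-1, xpf-1, polh-1 and polq-1), where 35.3% of all genes had that order, and the lowest for 1 (csb-1), where 22.3% had. These shares lie near those of the whole array. With spike scaling control was the highest for 0 of the 10 genes, as it was for 2.69% of all genes. Of the 67 other repair and checkpoint genes, 34 were highest in control and 6 lowest.

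Genes with the most similar pattern over the 5 arrays were sought for xpa-1 and polq-1, the 2 of the 10 genes with the widest range. Likeness was the mean absolute difference between log2 levels, each gene centred on its own mean. For xpa-1 the nearest were num-1 (0.014), impt-1 (0.025), mom-4 (0.028) and K04C1.5 (0.03), and 35 genes lay within 0.05. num-1 had 1595 unexposed, 1285 with benzene, 1204 with toluene, 1545 with formaldehyde and 1445 with the mix. For polq-1 they were cah-1 (0.018), mltn-9 (0.018), ZK858.5 (0.018) and slc-25A26 (0.018), and 267 genes lay within 0.05. ZK858.5 had 587 unexposed, 461 with benzene, 507 with toluene, 433 with formaldehyde and 471 with the mix. Under the deposited scaling the pattern of polq-1, with control high and formaldehyde low, was thus shared within 0.05 by 267 of 10271 genes.

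**Figure D4:**
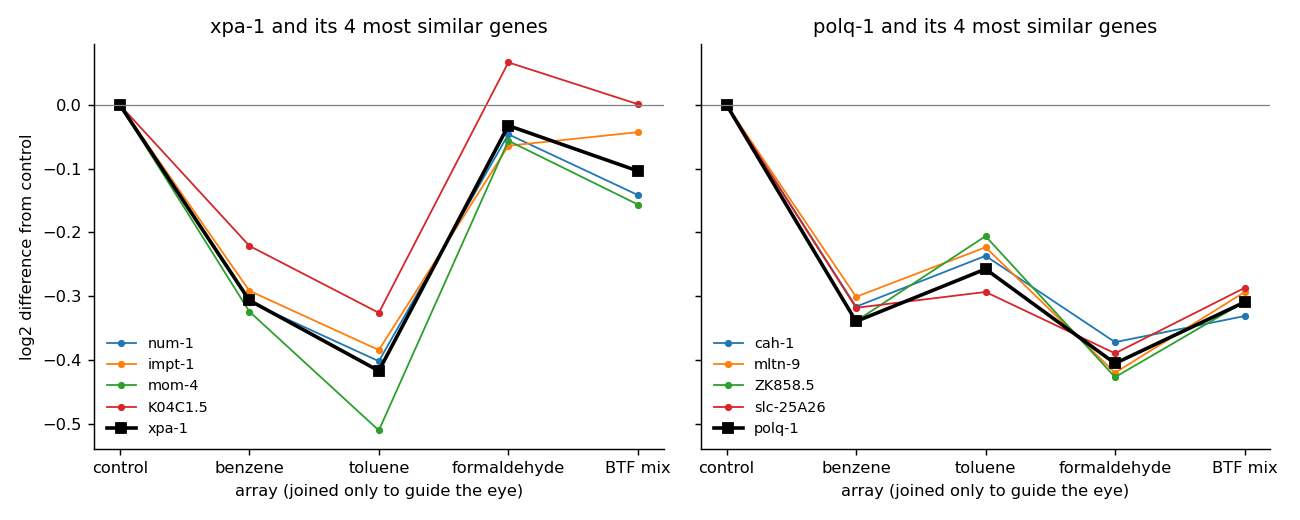
Log2 difference from control (vertical axis) on the 5 arrays for xpa-1 (left) and polq-1 (right), black squares, with the 4 most similar genes of each in colour. xpa-1 and its neighbours dip after benzene and toluene and lie near control after formaldehyde, and polq-1 and its neighbours lie below control after all 4 exposures.

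The labelled stage was checked against markers of the adult hermaphrodite. All 8 oocyte and adult markers were past the filter, among them vit-2, a yolk protein gene, with 8865 in control and 6958 after formaldehyde, and the adult collagen gene col-19, with 3536 and 5688, and none was at 0. col-19 was 25% higher after benzene, formaldehyde and the mix and vit-2 was 20% lower after formaldehyde, the other 6 stayed within those sizes, and the medians were -0.03 with benzene, -0.037 with toluene, -0.019 with formaldehyde and -0.11 with the mix. oma-1, an oocyte gene, was at -0.10 with benzene, -0.31 with toluene, -0.053 with formaldehyde and -0.13 with the mix. Germline markers, all 16 past the filter, had a summed intensity of 46337 in control and 44996 to 46289 after exposure, with medians of -0.021 with benzene, -0.026 with toluene, -0.016 with formaldehyde and -0.032 with the mix. pgl-1, a component of germ granules, was the furthest (-0.19 with benzene, -0.28 with toluene, -0.25 with formaldehyde and -0.42 with the mix), followed by the helicase gene glh-1 at 0.24 after the mix and puf-8, an RNA-binding regulator of germ cells, at -0.21. Replication genes, which mark dividing cells, had a summed intensity of 29957 in control and 27595 to 27796 after exposure, 11 of 15 were highest in control (35.3% of all genes were), and the medians were -0.12 with benzene, -0.13 with toluene, -0.11 with formaldehyde and -0.11 with the mix. With spike scaling 1 of the 15 was highest in control, where 2.69% of all genes were. The medians were then 0.32 with benzene, 0.005 with toluene, 0.022 with formaldehyde and -0.71 with the mix. Those of all genes were 0.40 with benzene, 0.10 with toluene, 0.074 with formaldehyde and -0.61 with the mix. cdt-1, which licenses replication origins, was the furthest (-0.51 with benzene, -0.26 with toluene, -0.52 with formaldehyde and -0.44 with the mix), and the primase genes pri-2 and pri-1 were at -0.31 and -0.25 after formaldehyde.

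Sperm markers had medians of 0.78 with benzene, 0.48 with toluene, 1.76 with formaldehyde and 1.60 with the mix, and intestine markers 0.44 with benzene, 0.066 with toluene, 0.76 with formaldehyde and 0.71 with the mix. With spike scaling the intestine medians were 0.87 with benzene, 0.20 with toluene, 0.89 with formaldehyde and 0.11 with the mix. The sperm medians, over the 7 markers then past the filter, were 1.15 with benzene, 0.44 with toluene, 1.69 with formaldehyde and 0.98 with the mix. Those of all genes were 0.40 with benzene, 0.10 with toluene, 0.074 with formaldehyde and -0.61 with the mix. Of the 6 of 9 sperm markers past the filter, 5 were 2-fold higher after formaldehyde and 4 after the mix, and the summed intensity of all 9 was 886 in control, 1676 with benzene, 1369 with toluene, 3361 with formaldehyde and 2975 with the mix. nspd-1, ssp-16 and gsp-3, which are expressed in sperm, stood at 2.32, 2.08 and 1.95 after formaldehyde. Another of the 5, spe-11, stood at 1.02. Its log2 level in control was 5.99, below the minimum of the filter, which it passed on its mean over the arrays (6.47). The markers fer-1, spe-38 and spe-9 were below the filter and stood at 0.05, 0 and 0 after formaldehyde. Intestine markers, all 8 past the filter, summed to 12892 in control and to 15986 with benzene, 14048 with toluene, 19136 with formaldehyde and 17772 with the mix, with act-5, an actin of the gut surface, at 2.38, the acid phosphatase gene pho-1 at 2.15 and the peptide transporter gene pept-1 at 0.81 after formaldehyde. pho-1 likewise passed the filter on its mean log2 level (6.70), while its levels in control (5.65) and with toluene (5.57) lay below the minimum. The sizes of the rises of spe-11 and pho-1 therefore start from a dim control value. The part of these marker shifts, of the control array and of the spike level in the small differences of xpa-1, xpf-1, polh-1 and polq-1 was not tested.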

How the data were processed

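Whole-animal RNA of 5 groups (control, benzene, toluene, formaldehyde, BTF mix) was measured on 1 array each, from 300 ng of total RNA per the labels' protocols. The authors deposited, for each probe set, a linear intensity value. RMA, Affymetrix Expression Console 1.1 and MAS5 are named without a role, per the submitters' processing notes, and which of them gave the values is not stated. Intensities were taken to log2(value + 16), which understates differences of dim genes. Genes were named from the platform annotation, with symbols brought up to date by Entrez identifier in RefSeq (WBcel235). A gene took its probe set of highest mean, probe sets with several genes were left out, and genes entered counts from the 40th percentile of mean level (6.05). Further probe sets of genes outside the 10 are not reported. The rules of size (2-fold and 25% higher or 20% lower) replace a test, since no replicates exist. Named were the 10 genes, the 3 genes of each of 14 lists past the level filter with the largest difference from control in any exposure, and the 4 most similar genes for 2 members. Other named genes (fnci-1, mus-81, xpc-1, brd-1, rad-51, rev-1, lig-4, egl-1, ced-13, atm-1 and the dim sperm markers) were chosen after their values were seen. The genes and lists were chosen with earlier results of these data known. Under the settings tried, 9 alternatives changed 1 choice at a time. The steps were tested on simulated data. Python 3.11.15, numpy 2.4.6 and pandas 2.3.3 were used.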

Additional observations from a re-analysis of the deposited data

How the results depend on the processing

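The settings tried were the level filter (none, or at the 60th percentile), array scaling (median centring, quantile normalization, poly-A spikes), probe sets (their mean, or none marked s or x) and the pseudocount (1 or 64). No gene of the 10 was 2-fold away from control under any of these settings. Filters, median centring, quantile normalization and pseudocounts moved no difference of the 10 genes by 0.1 or more on the log2 scale. Spike scaling moved all 40. The number of the 10 below control went from 7 to 0 after benzene and from 5 to 10 after the mix. Of the genes 20% lower after benzene it turned polh-1 and polq-1 after benzene to 0.082 and 0.10. It gave medians over the 10 genes of 0.36 with benzene, -0.014 with toluene, 0.11 with formaldehyde and -0.62 with the mix. Over all genes the medians with it were 0.40 with benzene, 0.10 with toluene, 0.074 with formaldehyde and -0.61 with the mix. With it 5 genes were 25% higher after benzene, 0 were lower after benzene, toluene or formaldehyde, 10 were lower after the mix, and both formaldehyde-containing arrays lay above the other 3 for 0 genes and below for 2. With it control was above all exposures for 0 genes and below for 0, formaldehyde was 20% below benzene for 3 genes, the mix 20% below formaldehyde for 10 and benzene 25% above toluene for 2. Median centring put control below all exposures for 2 genes, and turned the median after formaldehyde to 0.015 and that after the mix to 0.020. Quantile normalization turned the median after formaldehyde to 0.012. Under each of these 2 scalings both formaldehyde-containing arrays lay above the other 3 for 3 genes, with dvc-1 added. With the mean of probe sets, 1 gene was 20% lower after benzene and 0 after formaldehyde, and both formaldehyde-containing arrays lay above the others for 1 gene and below for 2. Without probe sets marked s or x, 4 genes were left past the filter (xpa-1, xpf-1, csb-1 and cep-1), so 0 were 20% lower after benzene or formaldehyde, and both formaldehyde-containing arrays lay above for 1 and below for 0, and control above all exposures for 2. No paired analysis was possible because each group has 1 array. The number of arrays limits the precision.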
